A study of Mus musculus with 19 samples.

Results

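Trem2 and 6 genes that signal with it or resemble it were followed in cultured adult mouse microglia that received lipopolysaccharide (LPS) or vehicle. The members were the rows with the symbols Trem2, Tyrobp, Syk, Plcg2, Inpp5d, Trem1 and Treml2, which are 7 of the 16941 genes in the count tables, and all 7 were present. Of these, 6 passed the filter on low counts and were tested among 14113 genes, while Treml2 did not pass and is described by its counts. The libraries fell into 4 groups: APP cultures given LPS (n = 5), APP cultures given vehicle (n = 5), WT cultures given LPS (n = 5) and WT cultures given vehicle (n = 4). The labels describe all cells as cortical microglia of C57BL/6 mice, 10 to 11 months old, kept for 4 weeks with 10% serum and macrophage colony-stimulating factor at 5 ng/mL. APP animals carried hAPPJ20, a human amyloid precursor protein transgene with Swedish and Indiana mutations behind a PDGF promoter that is active mainly in neurons, and WT animals lacked it. LPS, a bacterial cell wall component sensed by Toll-like receptor 4, was given at 100 ng/mL for 6 h, and RNA was taken after 16 h of recovery in fresh medium, so the values describe a late state and not the peak of the response. The vehicle was medium alone.

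TREM2 is a surface receptor of macrophages and microglia that binds lipids, lipoproteins such as APOE, and cell debris. It has no signalling tail of its own and depends on the adaptor DAP12, the product of Tyrobp, whose phosphorylated motif recruits the kinase SYK. SYK acts through phospholipase C gamma, encoded in these cells by Plcg2, and through phosphoinositide 3-kinase, while SHIP1, the product of Inpp5d, removes a phosphate from the lipid that phosphoinositide 3-kinase makes. TREM1 is a related receptor that shares DAP12 and amplifies inflammatory responses of neutrophils and monocytes, and TREML2 is another receptor encoded in the same gene cluster. Human variants in or near TREM2, PLCG2 and INPP5D are tied to the risk of Alzheimer disease.

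In GRCm38 with GENCODE M21 annotation, all 3 receptor genes lie on the plus strand of chromosome 17. Trem1 spans 48232768 to 48246924, Treml2 48299498 to 48312533 and Trem2 48346401 to 48354147, so that Trem2 begins 113.6 kb downstream of the start of Trem1. Tyrobp lies on chromosome 7 (30413760 to 30417585, plus strand), Syk on chromosome 13 (52583173 to 52648792, plus strand), Inpp5d on chromosome 1 (87620312 to 87720507, plus strand) and Plcg2 on chromosome 8 (117498291 to 117635142, plus strand). The 3′ end of Tyrobp faces that of Hcst, which encodes the related adaptor DAP10, across a gap of 126 bp. The libraries read the 3′ ends of transcripts, and how strand entered the counting is not given in the sources used here, so reads from this junction could in principle be divided between both genes. RefSeq start-site windows of GRCm38.p6, from 250 bases before to 50 bases after the annotated start, were held for 5 of the 7 members. Those of Trem2, Trem1 and Inpp5d are shown because Trem2 and Inpp5d had the most negative LPS changes among the members and Trem1 is the other tested member of the same cluster. Capitals mark letter matches, on either strand, to PU.1 (GAGGAAGT), C/EBP (TTGCNNAA) or AP-1 (TGANTCA), and these 3 words did not overlap each other in the windows shown.
Trem2, chr17:48346151-48346450, plus strand: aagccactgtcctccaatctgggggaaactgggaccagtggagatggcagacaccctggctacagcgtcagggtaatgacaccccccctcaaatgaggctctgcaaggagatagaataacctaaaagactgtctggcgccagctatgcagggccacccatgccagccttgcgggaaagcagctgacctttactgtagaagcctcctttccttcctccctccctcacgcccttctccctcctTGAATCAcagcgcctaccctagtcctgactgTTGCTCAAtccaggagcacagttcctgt
Trem1, chr17:48232489-48232788, plus strand: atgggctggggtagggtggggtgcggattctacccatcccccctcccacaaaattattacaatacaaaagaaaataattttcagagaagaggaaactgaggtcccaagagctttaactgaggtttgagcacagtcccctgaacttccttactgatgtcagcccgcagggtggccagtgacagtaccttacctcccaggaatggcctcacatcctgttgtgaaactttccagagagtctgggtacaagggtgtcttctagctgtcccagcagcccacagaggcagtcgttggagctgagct
Inpp5d, chr1:87620062-87620361, plus strand: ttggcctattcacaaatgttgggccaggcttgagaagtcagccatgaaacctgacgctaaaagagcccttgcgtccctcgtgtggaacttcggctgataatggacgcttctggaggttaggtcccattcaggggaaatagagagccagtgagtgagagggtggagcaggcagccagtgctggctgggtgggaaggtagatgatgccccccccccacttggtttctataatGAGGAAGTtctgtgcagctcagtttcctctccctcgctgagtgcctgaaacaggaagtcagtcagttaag
The Trem2 window held an AP-1 word that starts 9 bases before the annotated start and a C/EBP word that begins 22 bases after it. The Inpp5d window held a PU.1 word that starts 20 bases before the start, and the Trem1 window held none of the 3 words. Of 32851 windows of 300 bases in the same table, 7.81% held the AP-1 word, 10.8% the C/EBP word and 3.20% the PU.1 word. A longer NF-kB consensus occurred in 4.51% of windows and in none of the member windows. A match describes letters only.

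Macrophage transcripts were abundant in all 19 libraries, and RNA of other cells was present too. The 15 macrophage and microglia markers summed to 1447 to 7533 CPM (counts scaled by library size) in APP LPS, 2113 to 8637 in APP vehicle, 2361 to 8208 in WT LPS and 3093 to 8877 in WT vehicle libraries. The lowest sum of each group belonged to the libraries numbered 57 to 60, which are replicate 5 of APP LPS, APP vehicle and WT LPS and replicate 4 of WT vehicle. P2ry12 and Tmem119, which mark microglia in the brain, had medians of 2.61 and 5.52 CPM over the 19 libraries and were at 0 in 6 and 3 libraries, while the 6 markers of border-associated macrophages were uneven. Among these Pf4, Ms4a7 and Mrc1 had medians of 2820, 739 and 321 CPM, whereas F13a1, Cd163 and Lyve1 had medians of 12, 2.39 and 1.16 CPM, with Cd163 at 0 in 3 libraries and Lyve1 in 5. The 11 markers of pericytes, smooth muscle and fibroblasts summed to 29730 to 80070 CPM in APP LPS, 25670 to 54760 in APP vehicle, 31620 to 53410 in WT LPS and 32670 to 41010 in WT vehicle libraries, well above the macrophage markers. Most of this was Lrrc17, at 21300 to 77900 CPM over the 19 libraries, and the other 10 summed to 1254 to 5585 CPM in APP LPS, 1256 to 4746 in APP vehicle, 1772 to 3328 in WT LPS and 1712 to 2983 in WT vehicle libraries. The LPS response marker Il1b, which encodes interleukin-1 beta, averaged 399 ± 200 CPM (SD) in the APP cultures given LPS and 46.2 ± 50.7 CPM in those given vehicle, and 312 ± 96.6 CPM in WT cultures given LPS and 39.3 ± 31.4 CPM in those given vehicle. In bulk RNA, fewer macrophages and less of a transcript per macrophage cannot be told apart, so each tested member is also given relative to the macrophage markers.

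Trem2, the receptor, was lower after LPS in both genotypes. In APP cultures it stood at 40.4, 87.2, 35.8, 59.9 and 11.6 CPM in LPS replicates 1 to 5, against 181, 220, 140, 133 and 18.6 CPM in vehicle replicates 1 to 5. The first 4 vehicle libraries all lay above every LPS library, and vehicle replicate 5, one of the macrophage-poor libraries, lay among the lowest of all. In WT cultures it stood at 139, 91.9, 76.5, 102 and 20.1 CPM in LPS replicates 1 to 5, against 197, 232, 138 and 51.6 CPM in vehicle replicates 1 to 4. Here the groups overlapped, since LPS replicate 1 was level with vehicle replicate 3, and the macrophage-poor library was again the lowest of its group. Group means were 47.0 ± 28.3 CPM (SD) in APP cultures given LPS and 139 ± 75.6 CPM in those given vehicle, and 85.9 ± 43.4 CPM in WT cultures given LPS and 154 ± 78.9 CPM in those given vehicle. Ordered by mean, APP LPS was lowest, followed by WT LPS, APP vehicle and WT vehicle, and no mean differed from its neighbour in this order by more than the larger SD of both groups.

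The fit with 1 coefficient per group over all 19 libraries did not call Trem2. Its log2 change with LPS was −1.56 ± 0.56 (SE) in APP, with an adjusted p of 0.956 from edgeR's quasi-likelihood test, and −0.85 ± 0.58 in WT, with an adjusted p of 1. Averaged over both genotypes the change was −1.20 ± 0.40 with an unadjusted p of 0.00659 and an adjusted p of 0.564, which was the 165th smallest p of the 14113 genes. This fit called 0 genes (0%) in either genotype alone, where unadjusted p-values lay under 0.05 for 679 in APP and 516 in WT, and 3 genes (0.0213%) in the averaged contrast. None of the members was among them, nor among the genes called by DESeq2 (76 in APP, 89 in WT and 178 in the average) or limma voom (9, 3 and 68). Without the 4 macrophage-poor libraries, the averaged change of Trem2 was −1.24 with an adjusted p of 0.0166, and 30 genes (0.213%) were called.

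The labels number the libraries, and vehicle and LPS libraries of one genotype carry consecutive numbers in 9 pairs. WT LPS replicate 1 has no partner. In APP, paired libraries deviated together from their group means in all 5 pairs (r of 0.130 to 0.352 across genes). APP vehicle replicate 1, however, had a slightly higher r with LPS replicate 5 (0.140) than with its own partner (0.130). Because all 5 pairs had an r above 0.1, the limit set for treating libraries as pairs, the APP libraries were also fitted as pairs. The WT pairs had positive r too, but libraries 41 and 42 missed the limit at 0.0959. In that fit Trem2 fell by 1.47 ± 0.22 on the log2 scale, to 0.362 times the vehicle level, with an adjusted p of 0.00964 in edgeR's quasi-likelihood test and lower values in 5 of 5 pairs. The fit called 63 of 14113 genes (0.446%), 33 higher and 30 lower. Trem2 had the 15th smallest p of all genes and the 6th largest decrease among the 30 called lower, and it was the 1 member called. When genes were filtered on the APP libraries alone, its adjusted p was 0.05001, just above the threshold, at the same change. Leaving out 1 pair at a time gave changes of −1.65 to −1.29. The call was lost without libraries 7 and 8 (adjusted p = 0.115) or 11 and 12 (0.0883), and held without 3 and 4 (0.0395), 51 and 52 (0.0217) or 59 and 60 (0.00111).

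**Figure D1:**
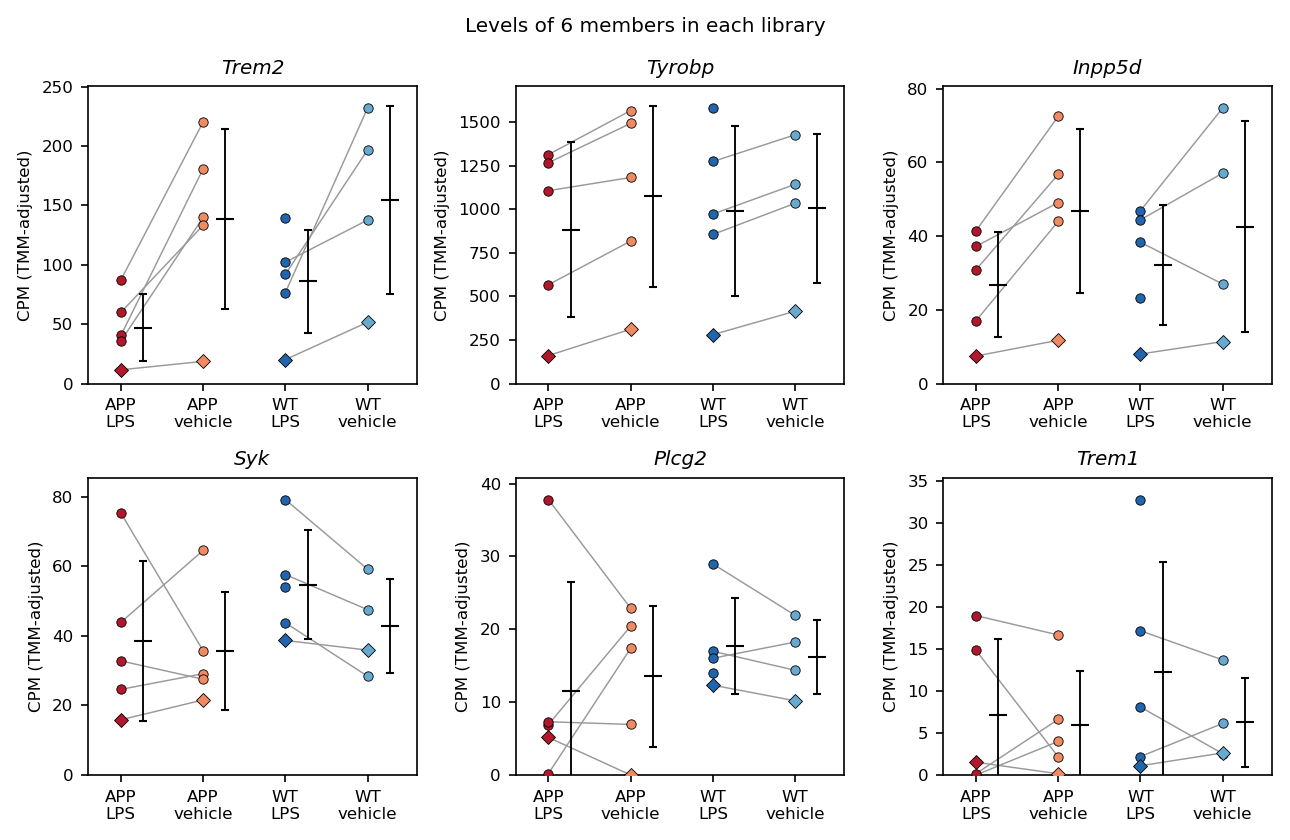
CPM of 6 members in each of the 19 libraries (linear axes), by group. Lines join libraries with consecutive numbers, diamonds are the libraries numbered 57 to 60, and bars beside the points are mean ± SD, with the part of a bar below 0 not drawn. Every line of Trem2 and of Tyrobp runs lower at its LPS end, whereas those of Syk, Plcg2 and Trem1 cross.

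Within pairs, Trem2 changed by −77.6%, −60.4%, −74.4%, −55.0% and −38.0% in the APP pairs, in order of library number, and by −53.3%, −67.0%, −25.8% and −61.0% in the WT pairs. All 9 pairs thus had less Trem2 in the LPS library, with a median log2 difference of −1.34. Of all genes tested, 4.99% were lower in 5 of 5 APP pairs, 6.59% in 4 of 4 WT pairs and 1.06%, or 149 genes, in 9 of 9 pairs, and Trem2 had the 16th most negative median among those 149. Tyrobp was the other member in that group. The WT numbers did not meet the limit set for treating them as pairs, so the WT differences are a description.

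Relative to the macrophage markers, Trem2 was still lower with LPS. It had 8.70, 14.02, 4.75, 11.1 and 7.99 counts per 1000 macrophage-marker counts in APP LPS replicates 1 to 5, against 34.3, 31.6, 16.2, 19.1 and 8.82 in APP vehicle replicates 1 to 5. WT LPS replicates 1 to 5 had 19.3, 11.2, 14.7, 14.4 and 8.52, against 22.2, 36.9, 17.1 and 16.7 in WT vehicle replicates 1 to 4. The ratio was lower with LPS in 9 of 9 pairs, with a median log2 difference of −0.985, but in the pair numbered 59 and 60 the values were nearly level. In the fit by group with these markers as library size, the log2 changes were −1.24 in APP and −0.77 in WT, neither of them called, while the median of all genes stood at 0.355 and 0.185. The marker sum was itself lower in the LPS library of each pair. Whether LPS changed the markers within macrophages was not tested, so the ratio is not a level per cell.

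Set against the transcript of its own adaptor, Trem2 was at 7.13, 6.64, 3.23, 4.73 and 7.20 counts per 100 Tyrobp counts in APP LPS replicates 1 to 5, against 22.1, 14.1, 11.8, 8.92 and 5.98 in APP vehicle replicates 1 to 5. In WT LPS replicates 1 to 5 it was at 8.79, 7.21, 8.94, 10.5 and 7.17, against 13.8, 22.4, 12.0 and 12.4 in WT vehicle replicates 1 to 4. The WT groups did not overlap, and the APP groups overlapped only through vehicle replicate 5. The pair numbered 59 and 60 was the 1 exception to a lower ratio with LPS. APP vehicle replicate 5 also had the highest Il1b of the vehicle libraries, at 131 CPM, and the lowest macrophage-marker sum among them. The part of cell composition in its low Trem2 was not tested.

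**Figure D2:**
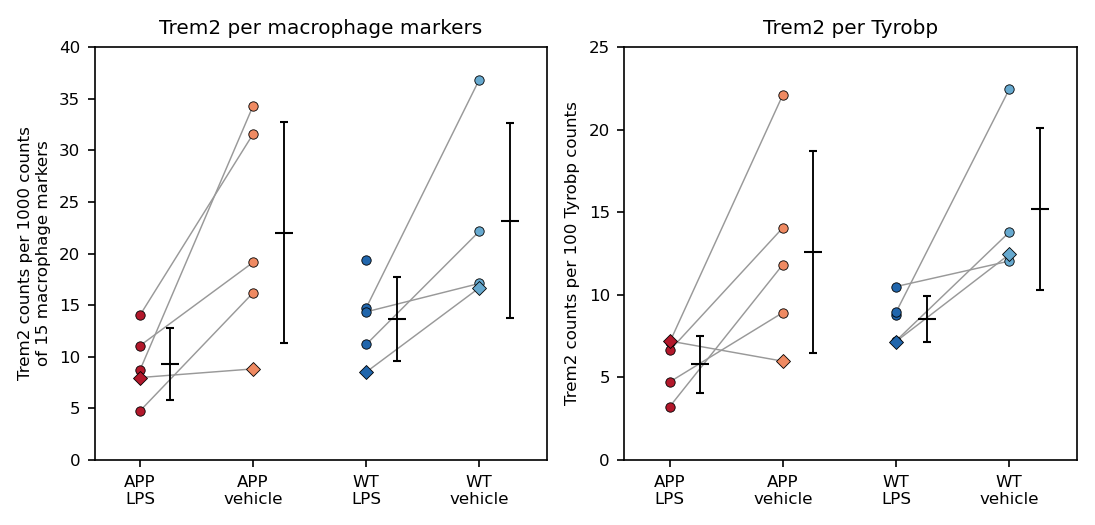
Trem2 counts per 1000 counts of 15 macrophage markers (left) and per 100 Tyrobp counts (right) in each library, by group. Lines join consecutive library numbers, diamonds are libraries 57 to 60, and bars are mean ± SD. The ratios were lower with LPS in 9 of 9 pairs on the left and in 8 of 9 on the right.

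Tyrobp, the DAP12 adaptor, had a smaller difference in the same direction. It stood at 567, 1314, 1106, 1267 and 160 CPM in APP LPS replicates 1 to 5, against 817, 1566, 1182, 1493 and 312 CPM in APP vehicle replicates 1 to 5. In WT it stood at 1581, 1274, 855, 972 and 280 CPM in LPS replicates 1 to 5, against 1427, 1034, 1143 and 415 CPM in vehicle replicates 1 to 4. The groups overlapped widely, with means of 883 ± 501 CPM in APP LPS, 1074 ± 519 in APP vehicle, 993 ± 488 in WT LPS and 1005 ± 427 in WT vehicle libraries (SD), and libraries 57 to 60 were the lowest of each group. Within pairs Tyrobp was lower with LPS in 9 of 9, by −0.96 to −0.10 on the log2 scale with a median of −0.25. The paired fit in APP gave −0.41 ± 0.13 with an unadjusted p of 0.00698 and an adjusted p of 0.334, so it was not called. Relative to the macrophage markers the adaptor was lower in 6 of 9 pairs, with a median of −0.055, which is near 0. The fit by group gave −0.28 ± 0.49 in APP and −0.02 ± 0.52 in WT.

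Inpp5d, which encodes the inhibitory lipid phosphatase SHIP1, was lower with LPS in 8 of 9 pairs but was not called. It stood at 37.2, 30.9, 41.4, 17.03 and 7.46 CPM in APP LPS replicates 1 to 5, against 49.1, 56.8, 72.5, 44.0 and 11.7 CPM in APP vehicle replicates 1 to 5. In APP all 4 vehicle libraries outside the macrophage-poor set lay above the LPS libraries. WT LPS replicates 1 to 5 held 23.2, 46.9, 44.4, 38.3 and 8.01 CPM, against 74.7, 57.1, 26.99 and 11.4 CPM in WT vehicle replicates 1 to 4, and there the groups overlapped. The pair numbered 41 and 42 was the exception, at 0.50 on the log2 scale, while the other 8 ranged down to −1.36. The paired fit in APP gave −0.82 ± 0.27 (unadjusted p = 0.00806, adjusted p = 0.362), and the fit by group gave −0.80 ± 0.54 in APP and −0.40 ± 0.57 in WT. Relative to macrophage markers it was again lower in 8 of 9 pairs.

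Syk, the kinase that docks on phosphorylated DAP12, showed no shared direction. It stood at 24.6, 43.9, 75.3, 32.8 and 15.9 CPM in APP LPS replicates 1 to 5, against 29.1, 64.6, 35.8, 27.6 and 21.6 CPM in APP vehicle replicates 1 to 5. In WT it stood at 54.2, 79.2, 43.8, 57.7 and 38.7 CPM in LPS replicates 1 to 5, against 59.2, 28.4, 47.6 and 35.9 CPM in vehicle replicates 1 to 4. It was lower with LPS in 3 of 5 APP pairs and in 0 of 4 WT pairs. The paired fit in APP gave 0.01 ± 0.30, and the fit by group gave 0.11 ± 0.37 in APP and 0.35 ± 0.39 in WT. Unlike Trem2 and Tyrobp, Syk in the macrophage-poor WT LPS library, at 38.7 CPM, was close to the 43.8 CPM of the next library. The macrophage-poor WT vehicle library, at 35.9 CPM, lay above the 28.4 CPM of vehicle replicate 2. In APP, however, Syk was lowest of its group in both macrophage-poor libraries, at 15.9 CPM with LPS and 21.6 CPM with vehicle. Relative to macrophage markers it was lower with LPS in 2 of 9 pairs, with a median of 0.497 on the log2 scale.

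Plcg2, the phospholipase downstream of SYK, was a low transcript with a wide spread in APP. It stood at 0.205, 37.8, 6.93, 7.31 and 5.16 CPM in APP LPS replicates 1 to 5, against 17.4, 22.9, 20.4, 6.94 and 0 CPM in APP vehicle replicates 1 to 5. The APP libraries thus ran from no count in vehicle replicate 5, where 3 counts would be 0.111 CPM, up to 37.8 CPM in LPS replicate 2. WT values were closer together, with 13.95, 28.97, 16.98, 16.0 and 12.3 CPM in LPS replicates 1 to 5, against 21.9, 14.4, 18.3 and 10.2 CPM in vehicle replicates 1 to 4. LPS libraries were lower in 3 of 9 pairs. Relative to macrophage markers, Plcg2 was lower with LPS in 3 of the 8 pairs with counts in both libraries. The median was 0.476 on the log2 scale, with a range of −6.22 to 0.891. The fit by group gave −0.24 ± 0.95 in APP and 0.12 ± 1.00 in WT, an error that leaves changes of 2-fold in either direction undetectable at this spread.

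Trem1, the inflammatory relative of Trem2 in the same cluster, also varied more between libraries than between groups. It stood at 0, 18.95, 14.8, 0.166 and 1.52 CPM in APP LPS replicates 1 to 5, against 3.99, 16.6, 2.15, 6.61 and 0.148 CPM in APP vehicle replicates 1 to 5. In WT it stood at 32.7, 8.08, 17.1, 2.20 and 1.10 CPM in LPS replicates 1 to 5, against 2.54, 13.7, 6.13 and 2.63 CPM in vehicle replicates 1 to 4. APP LPS replicate 1 had no count, where 3 counts would be 0.123 CPM, and replicate 4 had 0.166 CPM against 0.249 CPM for 3 counts. It was lower with LPS in 4 of 9 pairs. Relative to macrophage markers, Trem1 was lower with LPS in 3 of the 8 pairs with counts in both libraries. The median was 0.478 on the log2 scale, with a range of −4.95 to 3.91. Log2 changes were 0.26 ± 1.25 in APP and 0.97 ± 1.35 in WT in the fit by group, and −0.48 ± 2.24 in the APP pairs. The 8 measured neutrophil and monocyte markers summed to 144 to 502 CPM in APP LPS, 65.9 to 284 in APP vehicle, 155 to 351 in WT LPS and 65.7 to 210 in WT vehicle libraries, with a higher maximum in each LPS group than in its vehicle group. S100a8 (15.6 to 227 CPM) and Cxcr2 (7.16 to 194 CPM) were present in all 19 libraries, and S100a8 was higher with LPS in 9 of 9 pairs, while Ly6c2 was at 0 in 17 libraries, Ltf in 18 and Camp in 7. The part of such cells in Trem1 was not tested.

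Treml2 was found in 3 of 19 libraries. It had 114 counts, or 4.21 CPM, in APP vehicle replicate 5, 19 counts, or 0.780 CPM, in WT LPS replicate 2, and 40 counts, or 2.59 CPM, in WT LPS replicate 4. All other libraries had no count, and 3 counts correspond to 0.0963 to 0.249 CPM in a library. No group had it in a majority of its libraries, and no fold is given.

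**Figure D3:**
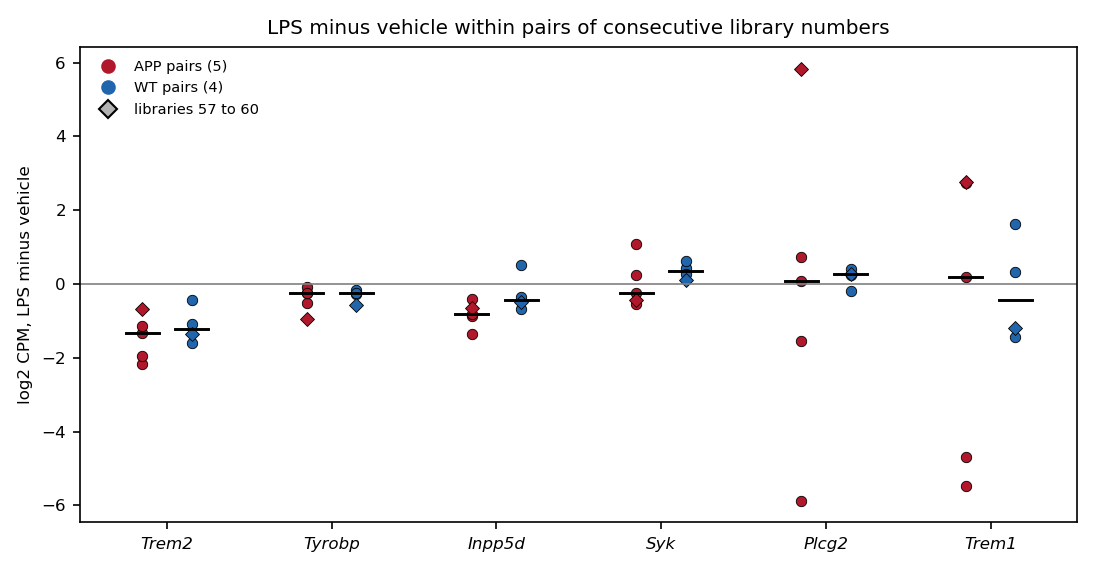
Log2 CPM of the LPS library minus that of the vehicle library (prior count 2) for 6 members in 5 APP and 4 WT pairs of consecutive library numbers. Each point is a pair, diamonds are libraries 57 to 60, and black bars are medians. All points of Trem2 and Tyrobp lie below 0, those of Trem2 farther down, and Plcg2 and Trem1 spread between −5.88 and 5.84.

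No member was called between the genotypes. With vehicle, the log2 difference of APP from WT was −0.16 ± 0.58 for Trem2, and the other 5 tested members lay between −0.26 and 0.14. After LPS it was −0.87 ± 0.55 for Trem2, where 4 of the 5 APP libraries lay below 4 of the 5 WT libraries, and −0.51 ± 0.37 for Syk. Tyrobp was at −0.17 ± 0.49 and Inpp5d at −0.26 ± 0.54 after LPS, and Plcg2 and Trem1 were at −0.62 ± 0.95 and −0.79 ± 1.25. All adjusted p-values were 1 in edgeR's quasi-likelihood test. Neither genotype contrast called a gene (0%), although unadjusted p-values lay under 0.05 for 402 genes with vehicle and 482 after LPS. The LPS change of Trem2 was 0.71 ± 0.80 log2 units more negative in APP than in WT in the interaction test, an error that spans no difference, and that test also called 0 genes (0%; 385 at an unadjusted p under 0.05). DESeq2 called 64 genes between genotypes with vehicle, 69 after LPS and 99 in the interaction, limma voom called 0 in each, and none was a member. The genotype contrasts and the LPS contrasts share libraries and are not independent of each other.

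**Figure D4:**
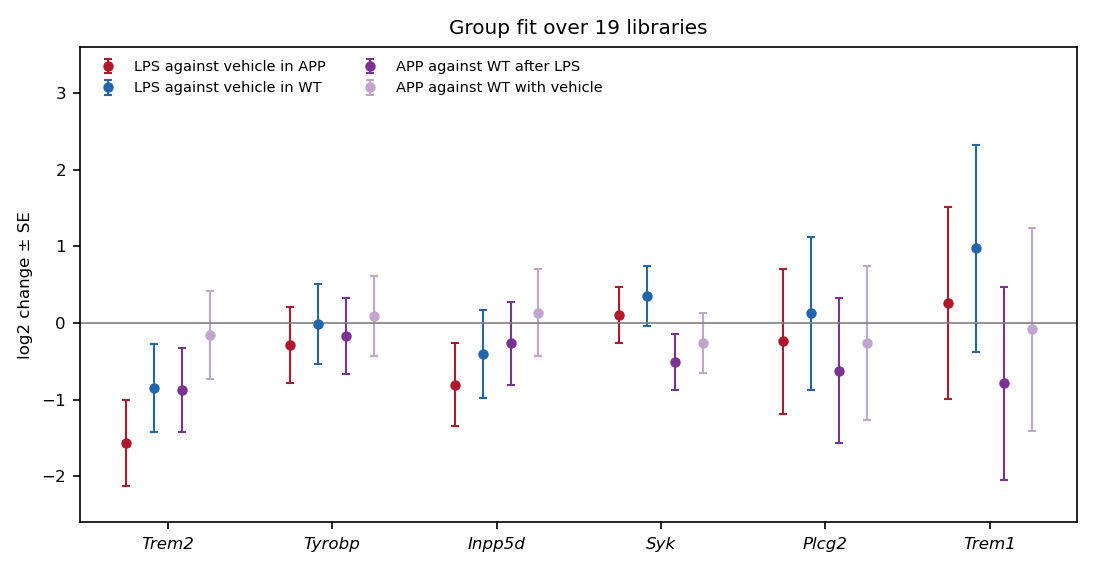
Log2 change ± SE of 6 members in the edgeR fit by group over 19 libraries, for LPS against vehicle in each genotype and for APP against WT in each treatment. The most negative value is −1.56 for Trem2 with LPS in APP, and the longest error bars are those of Trem1 and Plcg2.

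Genes around the receptor complex were then counted by list, in the fit of the APP pairs. In that fit the median of all genes was −0.113 and 0.446% of them were called. Among ligands, co-receptors and sheddases, 8 of 14 tested genes were below 0 and 6 above, with 0 called higher and 2 called lower. Apoe, a lipoprotein ligand of TREM2, fell by 1.02 ± 0.16 on the log2 scale (adjusted p = 0.0133 in edgeR's quasi-likelihood test). Lpl, a lipase of lipoproteins, fell by 0.88 ± 0.13 (adjusted p = 0.00783 in the same test). Apoe averaged 184 ± 31.1 CPM in APP LPS and 375 ± 77.2 in APP vehicle libraries (SD, n = 5 each), and these did not overlap. It was lower with LPS in all 9 pairs, and its averaged change of −1.02 ± 0.18 in the fit by group was called, with an adjusted p of 0.0439. Csf1, the growth factor of macrophages, and Ms4a6d, from a gene family whose human members are tied to soluble TREM2, were at 0.53 ± 0.15 and 0.65 ± 0.18 and were not called (adjusted p = 0.214 and 0.233). Csf1 was higher with LPS in 9 of 9 pairs and Ms4a6d in 7 of 9. Averaged over genotypes in a fit of all 9 pairs, both were called higher, while Apoe and Lpl were called lower. That fit includes the WT pairs, which did not meet the pairing limit. Adam10, a protease that sheds TREM2, was named after its values were seen. It was at −0.33 ± 0.13 (adjusted p = 0.572) and was lower with LPS in 9 of 9 pairs.

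The 18 genes that need TREM2 in the disease-associated state of mouse microglia had a median of −0.417, with 17 below 0. Of the 18, 3 were called lower and 0 higher, while 58.6% of all genes tested were below 0 and 0.446% were called. The 1 gene above 0 was Csf1, named above, which was higher with LPS in 9 of 9 pairs and called higher in the averaged fit of all pairs. Igf1, an insulin-like growth factor, fell by 1.41 ± 0.13 (adjusted p = 2.63e-04), at 220 ± 118 CPM in APP LPS and 562 ± 284 in APP vehicle libraries. Lgals3, which encodes galectin-3, fell by 0.81 ± 0.14 (adjusted p = 0.0236), and Lpl, named above, was the third. Of the 6 genes of the first stage that forms without TREM2, 2 were called lower and 0 higher. These were Apoe, named above, and Ctsd, a lysosomal protease that fell by 0.76 ± 0.11 (adjusted p = 0.00964). The median of the 6 genes was −0.360. Ctsb, another lysosomal protease, was at −0.41 ± 0.10 (adjusted p = 0.1001). Many of these genes are macrophage transcripts, and the macrophage-marker sum was lower in the LPS library of each pair, APP and WT. The part of that in their changes was not tested.

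The remaining lists had 0 genes called in either direction. The 12 tested DAP12-coupled and TREM-family receptors divided into 6 below and 6 above 0, with Pilrb1, a paired receptor that couples to DAP12, at 1.57 ± 0.75 (adjusted p = 0.782). Treml1, a platelet receptor of the same cluster, had no count in any of the 5 APP LPS libraries. It also had no count in 2 of the 5 APP vehicle libraries, which averaged 1.07 CPM and reached 2.38 CPM. The 13 Src-family kinases and tyrosine phosphatases had a median of 0.222, with the phosphatase gene Ptpn11 at 0.19 ± 0.15. The 17 genes of SHIP1-related phosphatases, docking proteins and phosphoinositide 3-kinase had a median of −0.160, with the catalytic subunit gene Pik3cb at −0.96 ± 0.51. Pik3cb stood at 80.4 CPM in APP vehicle replicate 3, against 15.9 to 20.4 CPM in the other APP vehicle libraries. The 22 genes of the PLCG2 module and calcium signalling had a median of −0.306 and 15 below 0. Among them, the exchange factor genes Rasgrp3 and Vav3 were at −4.44 ± 1.87 and −1.32 ± 0.43 (adjusted p = 0.659 and 0.382 in edgeR's quasi-likelihood test). Rasgrp3 had no count in 2 of the 5 APP LPS libraries and 2 counts in replicate 5, so the size of its change is set by values near the floor. The 7 genes of the CARD9 module, which links SYK to NF-kB, had a median of 0.124, with Malt1, its protease, at 0.63 ± 0.52 and Nfkb1, an NF-kB subunit gene, at 0.53 ± 0.21.

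**Figure D5:**
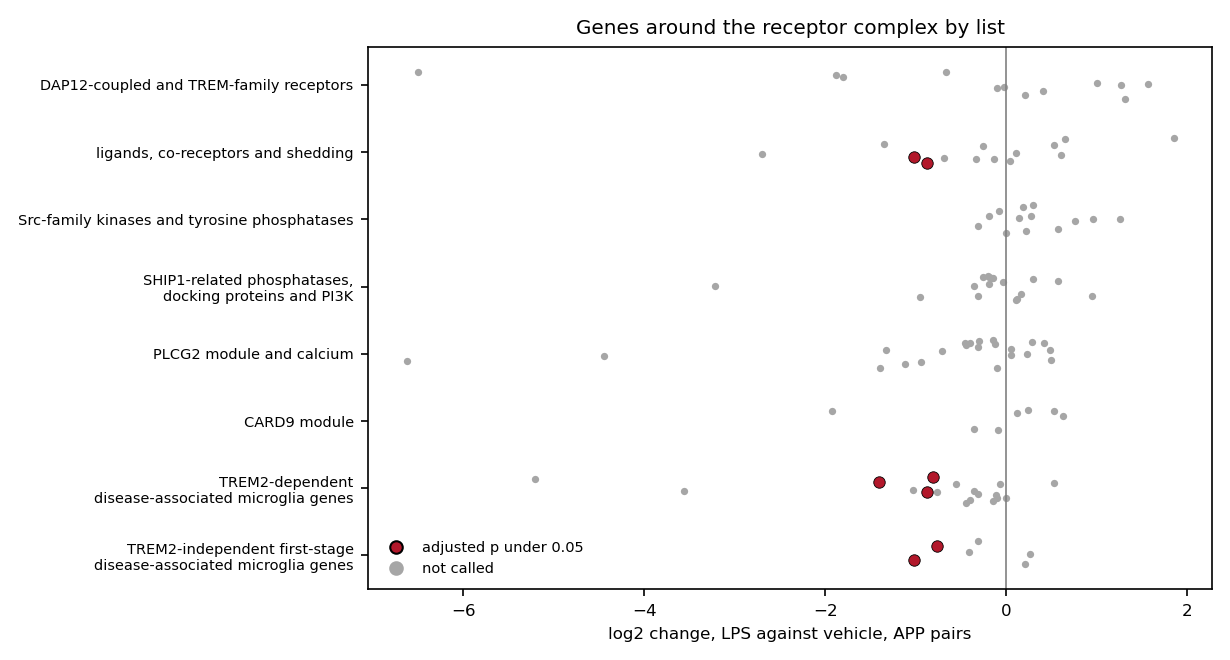
Log2 change with LPS in the paired fit of APP libraries for every tested gene of 8 lists around the receptor complex. Red points are genes with an adjusted p under 0.05, and grey points are genes not called; a gene can stand in more than 1 list. Red points occur in 3 lists, all between −1.41 and −0.76.

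Across the 19 libraries, Trem2 varied together with Tyrobp (Pearson r = 0.841 of log2 CPM) and Inpp5d (0.807). Its r was lower with Plcg2 (0.581), Trem1 (0.529) and Syk (0.442). By rank (Spearman) the order differed, with 0.782 for Inpp5d, 0.66 for Plcg2, 0.646 for Tyrobp, 0.454 for Trem1 and 0.312 for Syk. The macrophage-marker sum differed between these libraries, from 1447 to 8877 CPM, so the coefficients describe joint variation only. Among 8240 other genes with a mean of at least 10 CPM, those most like Trem2 included Aldh2 (r = 0.943), an aldehyde dehydrogenase gene, Pmp22 (0.919) and Rab7b (0.917), a small GTPase gene of lysosomal transport. The least alike were Hsp90aa1 (−0.888), a heat shock chaperone gene, Set (−0.883) and Ccl2 (−0.871), a monocyte-attracting chemokine gene. With group means subtracted, the highest included Slc43a2 (0.972), Lair1 (0.944), Cops9 (0.940) and Pdgfb (0.937). The genes most like Trem1 were Metrnl (0.858), Mcee (0.824) and Card19 (0.817), none of which is named above for Trem2. Plcg2 and Trem1 had r = 0.720 with each other, and 0.516 by rank. In APP LPS replicate 1 and APP vehicle replicate 5, both genes had 5 counts or fewer. The part of these libraries in the r was not tested.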

How the data were processed

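QuantSeq 3′ libraries from RNA with an integrity number above 8.5 were sequenced, per the labels' protocols. Per the submitters' processing notes, FastQC, Trimmomatic, kallisto and DESeq2 were used. The authors deposited estimated counts per gene symbol, all whole numbers. For build, tool versions and identifier collapse, nothing is given in the sources used here. Totals ran from 13065257 to 31248988 counts (median 21918747). Three-count floors cover counting error only.

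CPM were computed with TMM factors. Tests were edgeR 4.0.16 quasi-likelihood F tests (R 4.3.3, limma 3.58.1), with 1 coefficient per group, the filterByExpr rule and Benjamini-Hochberg adjustment over 14113 genes, called under 0.05. Self-tests on simulated counts were run first. Their dispersion, the spread between libraries beyond counting error, was capped at 0.1, while the fit by group had a common value of 1.05. They therefore do not show how the fits perform at the spread of these data. Whether libraries are of separate animals or dishes is not labelled, and p-values therefore reflect variation among libraries that may be technical. No library pair in a group was a copy (smallest chi-square per degree of freedom 85.9 over 36 pairings). Library numbers paired the APP libraries: every pair had r above 0.1 (0.130 to 0.352). WT LPS replicate 1 is number 5 by label and number 6 by file. Alternatives were DESeq2 1.42.0, limma voom, other scalings, no filter, blocks and libraries left out.

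The members, the gene lists and the named-gene rule (called list members, or else the smallest p in the averaged LPS contrast, plus the most and least similar genes) were chosen with earlier results of these data known. Some genes that the rule names are not reported here. Promoter sequences are from RefSeq.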

Additional observations from a re-analysis of the deposited data

Results flagged for a closer look

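Plcg2 in LPS-treated cultures was flagged because 1 library stood far from the other 4 of its group. In APP LPS libraries, replicate 2 had 37.8 CPM while the others had 0.205 to 7.31 CPM, and its gap to the nearest took 0.811 of the group's range. In WT LPS libraries, replicate 2 had 28.97 CPM while the others had 12.3 to 16.98 CPM, a gap of 0.72 of the range. The 6 tested members and 4 groups gave 24 groups of values to screen, and the limit used is one that chance passes in about 1 of 20 groups.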

How the results depend on the processing

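All changes here are log2 values unless counts of members are named. The number of members called was 0 in all 6 contrasts of the fit by group, and DESeq2, limma voom, RLE size factors, no filter, macrophage-marker scaling, the block by title number and leaving out any of the 19 libraries also called 0. The number was 1, Trem2, in 11 other fits. These were the APP pairs alone, 3 of the 5 fits that leave out an APP pair (range 0 to 1), and, for APP and for the average, the block by consecutive library number with all 9 pairs (adjusted p = 0.00400 and 1.78e-04), without libraries 57 to 60 (2.84e-04 and 4.97e-05) and with macrophage-marker scaling (0.0157 and 0.00215). The last was the averaged fit by group without libraries 57 to 60 (0.0166). Several of these were added after seeing the data. With the block over all 9 pairs, 84 genes were called in APP, 21 in WT and 214 in the average, against 0, 0 and 3 without it. In WT the numbers share only a sequence: r was 0.0959 to 0.292, and 1 pair missed the limit of 0.1, although each of the 4 WT vehicle libraries correlated best with its consecutive LPS library. Among APP vehicle libraries replicate 1 did not, its highest r being 0.140 with LPS replicate 5. With this block Trem2 was at −1.12 ± 0.23 in WT (adjusted p = 0.0713), and Tyrobp at −0.36 ± 0.09 in the average (0.0549). It also called Csf1 and Ms4a6d higher in the average (0.0303 and 0.0319), and Fabp5 and Gpnmb lower in APP (0.0477 for both), which raised the TREM2-dependent genes called lower there to 5, against 3 in the APP pairs alone. Same-numbered titles gave r of −0.091 to 0.0659 in WT, and the block by title number gave Trem2 −1.43 in APP (0.245).

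Macrophage-marker scaling moved the median of all genes by more than 0.1, to 0.355 in APP and 0.185 in WT, and turned the split of genes called with the block in APP to 345 higher and 13 lower, against 42 and 42. Relative to that median, Trem2 stood at −1.60 in APP and −0.952 in WT. The direction of the LPS change of Trem2 in APP, in WT and in the average, and of Inpp5d and Tyrobp in APP and in the average, held in every alternative run. Directions turned for members that were not called, and the cause was not tested. With macrophage-marker scaling, Plcg2 was at 0.26 in APP and 0.30 in the average, Tyrobp at 0.082 with LPS in WT and 0.054 for APP against WT after LPS, and in that comparison Inpp5d at 0.027. Without P2ry12 and Tmem119 in that sum the same 5 values were 0.26, 0.30, 0.081, 0.053 and 0.027. With the block by consecutive number, Trem1 was at −0.48 in APP, −0.20 in WT and −0.34 in the average, and without libraries 57 to 60 at −2.22 in APP and −1.01 in the average. With the block and macrophage-marker scaling, Plcg2 was at 0.029 in APP and 0.23 in the average, and Trem1 at −0.24 and −0.099. In the APP pairs alone Trem1 was at −0.48, and at −0.47 with the filter on APP libraries. With the block by title number, the LPS change in WT was 0.27 for Tyrobp and 0.0053 for Inpp5d, the averaged change of Plcg2 was 0.047, and APP against WT with vehicle was 0.088 for Trem2 and 0.27 for Trem1. With limma voom, the LPS change in APP was −0.024 for Syk, 0.29 for Plcg2 and −1.22 for Trem1, the averaged change was 0.19 for Plcg2 and −0.45 for Trem1, Tyrobp was at −0.083 for APP against WT with vehicle, and the interaction of Plcg2 was 0.22.

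With 1 library left out at a time, the LPS change in APP ranged from −1.47 to 0.077 for Plcg2, −0.29 to 0.43 for Syk and −0.52 to 1.14 for Trem1, and with 1 APP pair left out from −1.26 to 0.81, −0.25 to 0.14 and −2.26 to 0.90 for the same genes. Against the sign of the fit by group, Plcg2 was at 0.81 without libraries 3 and 4 and at 0.40 without 11 and 12, Syk at −0.25 without 11 and 12 and −0.045 without 51 and 52, and Trem1 at −1.43 without 7 and 8, −2.25 without 11 and 12 and −2.26 without 59 and 60. In WT it ranged from −0.72 to 0.016 for Inpp5d, −0.13 to 0.31 for Plcg2 and −0.28 to 0.22 for Tyrobp, and in the average from −0.67 to 0.099 for Plcg2. APP against WT with vehicle ranged from −0.18 to 0.56 for Inpp5d, −0.53 to 0.063 for Plcg2, −0.95 to 0.65 for Trem1, −0.45 to 0.13 for Trem2 and −0.16 to 0.33 for Tyrobp, and after LPS from −0.41 to 0.10 for Tyrobp. The interaction ranged from −0.64 to 0.079 for Syk, −1.49 to 0.16 for Trem1 and −0.50 to 0.0084 for Tyrobp. At these depths a level under 3 counts, or 0.0963 to 0.249 CPM by library, cannot be told from absence. The library without Plcg2 had 25502823 counts and that without Trem1 had 23165305.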
